A study of Homo sapiens with 5 samples.

Results

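The comparison set PANC1 against SU86.86, 2 of the 5 human pancreatic lines whose RNA was measured on expression arrays, with 1 array per line. Both are established lines grown from pancreatic ductal carcinoma, untreated, PANC1 from a primary tumour and SU86.86 from a liver metastasis. The other 3 lines, HPAF1, L3.6 and HPDE, served to show on which side a difference lay. Each line is a single culture of cells from 1 person, so differences between PANC1 and SU86.86 are differences between these cultures, and 1 array each leaves no replicate error and no test.

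Of 19775 genes with a probe set that carries a single gene symbol, 14894 reached the level filter in at least 1 of the 5 lines and made up the comparison. Values are deposited intensities, a linear brightness with no lower detection call. Differences are PANC1 minus SU86.86 after log2(intensity + 71.1), so that 1 unit is 2-fold, and a positive value is higher in PANC1. The added constant shrinks differences where 1 line is dim, and an intensity under 140, the median of all probe sets, is treated here as below the filter. Probe sets whose array suffix, _x_at or _s_at, marks that they may pick up more than 1 transcript are called cross-matching. The array medians were 138 in PANC1 and 137 in SU86.86. On 18 spike-in control probe sets the difference averaged -0.03 with a standard deviation of 0.12, which measures hybridisation and scanning only. The ratio of 3' to 5' probe sets was 1.04 in PANC1 and 1.02 in SU86.86 for GAPDH, and 1.11 in PANC1 and 1.02 in SU86.86 for ACTB.

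Carcinoma cells of the pancreatic duct lie on a range between an epithelial state, in which E-cadherin, claudins, desmosomes and keratins hold cells in a sheet, and a mesenchymal state, in which repressors such as ZEB1 silence those genes and vimentin is high. Epithelial carcinoma lines also often secrete neutrophil-attracting chemokines and ligands of the EGF receptor, and they differ in how much of the antigen presentation machinery they make. PANC1 is widely used as an example of the mesenchymal-like end. As a check that the cells were epithelial, EPCAM, KRT8, KRT18, KRT19 and CDH1 were all above the filter in both lines, and they were so in the duct line HPDE too, so they do not mark carcinoma. KRT18, a keratin of simple epithelia, read 13880 in PANC1 and 28902 in SU86.86.

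Markers of other cell types were mostly near the filter. Of 4 measured acinar markers that passed the filter none differed 2-fold, with 3 below the filter in PANC1 and 3 in SU86.86. None of 10 fibroblast markers differed 2-fold either, and their differences ran from -0.40 to 0.73. Of 11 endocrine markers 2 were lower in PANC1, UCHL1, a ubiquitin hydrolase of neurons, at 51.4 in PANC1 and 533 in SU86.86, and SCG5, a secretory granule protein, at 39.0 in PANC1 and 361 in SU86.86. The UCHL1 value rests on 1 probe set, since its other gave 0.06. Of 4 endothelial markers ESAM was lower, at 122 in PANC1 and 521 in SU86.86. CORO1A, an actin-binding protein of leukocytes, read 199 in PANC1 and 1477 in SU86.86, and LAPTM5, a lysosomal protein of blood cells, read 1192 in PANC1 and 2575 in SU86.86. These were the only 2 of 6 immune markers that differed 2-fold, and CD3E and CD3D were alike in both lines.

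Across all genes the levels correlated with Pearson's r = 0.863, and 10463 genes (70.2%) differed by less than 0.5. The median difference was 0.05. At 2-fold or more 783 genes (5.26%) were higher in PANC1 and 1061 genes (7.12%) were lower, which gives 12.4% in either direction. The counts of the gene lists below stand beside these shares. At 8-fold or more the split was 31 genes higher (0.208%) and 139 lower (0.933%). Many of these genes were at background in the dimmer line, with PANC1 below the filter for 435 of the 1061 lower genes and SU86.86 below it for 173 of the 783 higher ones. The 8-fold counts depend on the added constant, and with a constant of 16 they were 50 higher and 221 lower.

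**Figure D1:**
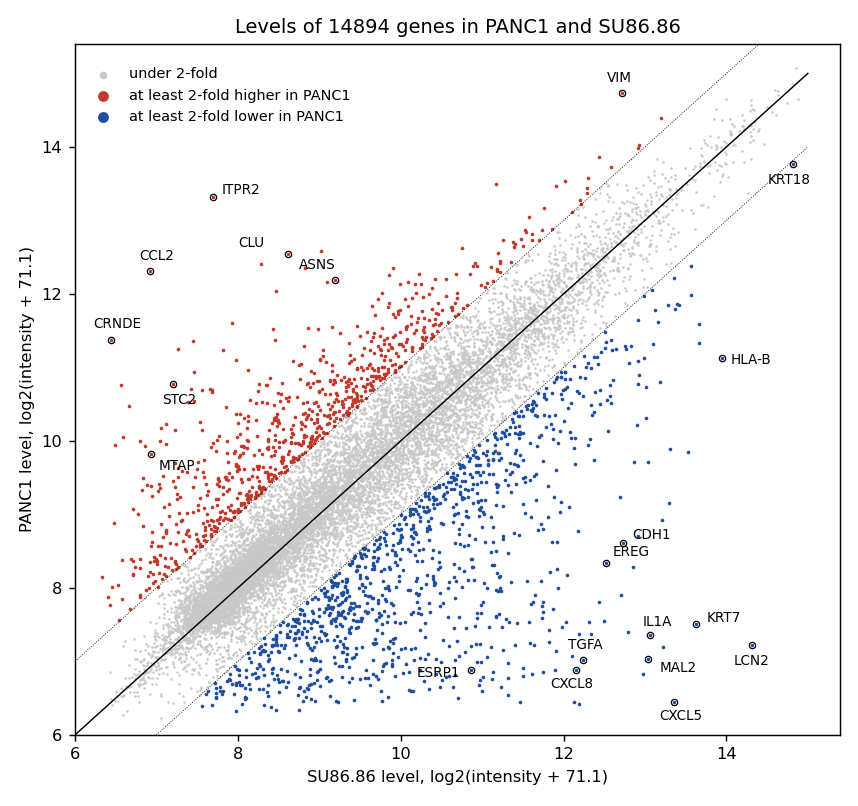
Each point is 1 of the genes compared, placed by its log2(intensity + 71.1) in PANC1 (vertical) and in SU86.86 (horizontal). The solid line marks equal levels and the dotted lines a difference of 1 log2 unit. Red points are the 783 genes at least 2-fold higher in PANC1 and blue points the 1061 at least 2-fold lower, and circled genes are named in the text. The genes furthest below the line, such as LCN2, CXCL5 and MAL2, sit at the bottom of the PANC1 scale.

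The genes of the epithelial sheet were lower in PANC1 almost throughout. Of 30 measured genes of epithelial adhesion, junctions and apical transport, 21 were at least 2-fold lower and 1 was higher, with a median difference of -1.69. PANC1 was the lowest of all 5 lines for 21 of the 30, whereas SU86.86 was the highest for 7. Over all genes with a chromosome position PANC1 was the lowest for 17.0%. The share of all genes with SU86.86 the highest was not counted, so its counts here and below have no such share beside them. A gene at background in several lines also enters these ranks. E-cadherin, CDH1, read 320 in PANC1 and 6736 in SU86.86, a difference of -4.12, and its second probe set gave -3.31. HPAF1 and HPDE were near SU86.86 for CDH1, at 7588 and 10281, and L3.6 was between at 895.

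Some members of this group were at background in PANC1. MAL2, a membrane protein of apical transport, read 59.6 in PANC1 and 8349 in SU86.86, a difference of -6.01. RAB25, a small GTPase of apical recycling in epithelia, read 49.1 in PANC1 and 2817 in SU86.86. LAD1, a protein that anchors cells to the basement membrane, read 82.2 in PANC1 and 3532 in SU86.86. Both MAL2 and LAD1 were above 1000 in each of the other 3 lines, while RAB25 was at background in L3.6 as well, at 65.3. ST14, the membrane protease matriptase, was at 133 in PANC1 and 3353 in SU86.86.

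Other members stayed on in PANC1. EPCAM, an adhesion molecule of simple epithelia, read 1715 in PANC1 and 9245 in SU86.86, a difference of -2.38. PKP3, a plakophilin of desmosomes, read 283 in PANC1 and 2472 in SU86.86. OCLN, occludin of tight junctions, was alike at 1971 in PANC1 and 2072 in SU86.86, so not every junction gene was lower.

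Keratins of simple epithelia followed the same direction, with 6 of 7 at least 2-fold lower in PANC1 and a median of -1.58. KRT19, the keratin used as a marker of duct cells, read 847 in PANC1 and 11710 in SU86.86, a difference of -3.68. KRT8, the partner of KRT18, read 3977 in PANC1 and 12022 in SU86.86, a difference of -1.58. KRT7 had the fourth lowest difference of all genes, -6.11, at 111 in PANC1 and 12541 in SU86.86. That value rests on 1 probe set, because the 2 others above the filter gave only -0.74 and -0.38. Without cross-matching probe sets the count of lower keratins was 2.

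Among basal and squamous genes none of 23 was 2-fold higher in PANC1 and 8 were lower, with 17 of the 23 below the filter in PANC1. SERPINB5, the serpin maspin, read 25.8 in PANC1 and 1972 in SU86.86. KRT5, a basal keratin, read 86.2 in PANC1 and 750 in SU86.86. The SU86.86 level of KRT5 was itself low beside L3.6 and HPDE, which read 5370 and 14448.

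Regulators that maintain the epithelial state mostly showed the same order where they differed. Of 15 measured, 7 were lower in PANC1 by 2-fold or more and 2 were higher. EHF, an ETS factor of epithelia, read 14.6 in PANC1 and 4599 in SU86.86, a difference of -5.77, and its 5 other probe sets ran from -4.08 to -1.23. ESRP1, which directs epithelial splicing, read 46.5 in PANC1 and 1794 in SU86.86, a difference of -3.99. KLF5, a factor of proliferating epithelium, read 121 in PANC1 and 3325 in SU86.86. For EHF, ESRP1 and KLF5 the PANC1 array was the lowest of the 5.

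GRHL2, a grainyhead factor that activates CDH1, read 193 in PANC1 and 1286 in SU86.86. GRHL3, of the same family, went the other way, with a difference of 1.82, and SU86.86 was the lowest of the 5 lines for it. FOXA1, a pioneer factor of endoderm, was lower, at 58.8 in PANC1 and 1076 in SU86.86. Its relative FOXA2 had the opposite sign, at 1622 in PANC1 and 400 in SU86.86, a difference of 1.85, and PANC1 had the highest FOXA2 of the 5 lines. SOX9, a factor of duct cells, was alike at 2551 in PANC1 and 2911 in SU86.86. GATA6, a factor of the classical subtype of pancreatic carcinoma, was low in both lines, at 137 in PANC1 and 202 in SU86.86.

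Factors of the mesenchymal state were higher in PANC1 for 5 of 11 measured and lower for 1, with a median of 0.81. ZEB1 read 523 in PANC1 and 115 in SU86.86, a difference of 1.68, and its 2 other probe sets gave 1.93 and 2.85. FOXC2 read 769 in PANC1 and 111 in SU86.86, but its other probe set gave only 0.40. SNAI2, often counted with these repressors although basal epithelial cells make it too, went against the rest, at 42.1 in PANC1 and 1311 in SU86.86, a difference of -3.61. SNAI1 was alike at 173 in PANC1 and 167 in SU86.86. SNAI2 was above 1000 in all of the other 3 lines, so the PANC1 array stood apart for it.

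Mesenchymal structural and matrix genes did not move as one group. Of 26 measured, 3 were at least 2-fold higher in PANC1 and 8 were lower, and SU86.86 was the highest of the 5 lines for 13. VIM, vimentin, read 27257 in PANC1 and 6637 in SU86.86, a difference of 2.03, with 0.72 on its other probe set. S100A4, a calcium-binding protein of motile cells, read 2025 in PANC1 and 358 in SU86.86.

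The lower members were secreted matrix proteins and contractile proteins. FN1, fibronectin, read 106 in PANC1 and 2353 in SU86.86, a difference of -3.77, with its 4 other probe sets between -4.15 and -1.25. TNC, tenascin C, read 38.4 in PANC1 and 702 in SU86.86. TAGLN, transgelin of the actin cytoskeleton, read 533 in PANC1 and 3706 in SU86.86. THBS1, the matrix glycoprotein thrombospondin, was among the 20 lowest of all genes, at 93.8 in PANC1 and 5095 in SU86.86. COL6A1, a collagen VI chain, had a difference of -2.94 on the probe set kept and 0.43 when cross-matching probe sets were left out. With that choice the count of lower mesenchymal genes was 2, and it was 4 when a gene's probe sets were averaged.

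CAV1, the coat protein of caveolae, was high in both lines at 12622 in PANC1 and 9410 in SU86.86. AXL, a receptor kinase often high in mesenchymal-like carcinoma cells, was alike at 1977 in PANC1 and 2164 in SU86.86. Vimentin, CAV1 and AXL were therefore all well above the filter in SU86.86 beside its high CDH1.

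**Figure D2:**
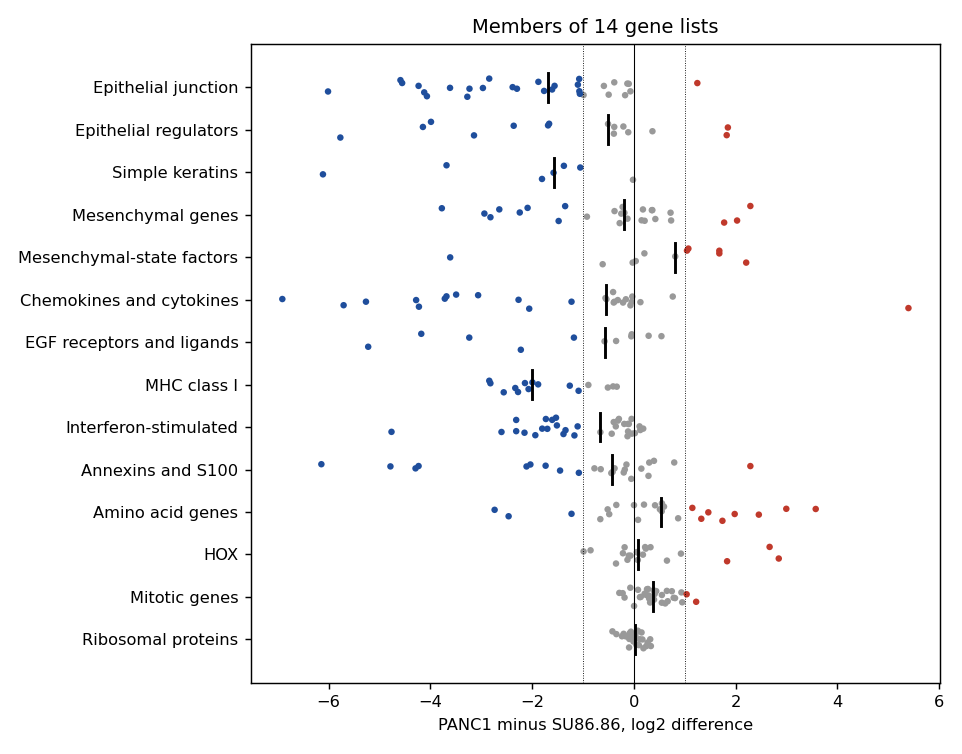
Each point is a measured member of 1 of 14 gene lists, placed by its log2 difference PANC1 minus SU86.86, and the black bar is the list's median. Dotted lines mark 2-fold. Red points are at least 2-fold higher in PANC1 and blue points at least 2-fold lower. All 15 MHC class I genes lie below 0, while the ribosomal proteins lie between -0.42 and 0.33.

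Chemokines and cytokines held some of the widest differences in both directions. Of 26 measured, 12 were lower in PANC1 by 2-fold or more and 1 was higher, with a median of -0.55, and SU86.86 was the highest of the 5 lines for 14. The single higher gene was CCL2, the chemokine that attracts monocytes. It read 5029 in PANC1 and 50.1 in SU86.86, a difference of 5.39, and between 53.6 and 64.0 in the other 3 lines, so it was on in PANC1 alone.

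The lower genes were led by a family that attracts neutrophils. CXCL5 read 16.3 in PANC1 and 10431 in SU86.86, a difference of -6.91. CXCL8, known as interleukin 8, read 47.3 in PANC1 and 4480 in SU86.86, a difference of -5.26. Both genes were kept through cross-matching probe sets, and their other probe sets ran from -7.14 to -4.21 for CXCL5 and gave -3.98 for CXCL8. CXCL1 read 120 in PANC1 and 2440 in SU86.86, and CXCL3 read 44.1 in PANC1 and 2165 in SU86.86. CXCL6 read 26.2 in PANC1 and 1024 in SU86.86. CXCL2 read 39.1 in PANC1 and 1989 in SU86.86, yet with cross-matching probe sets left out its difference was 0.06, so its own change is uncertain. PANC1 was below the filter for all 6 genes.

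These 6 genes lie close together on chromosome 4. They fall in 2 unbroken runs of measured genes, from CXCL8 to CXCL1 and from PPBP to CXCL2. All genes of the runs were lower in PANC1 by 2-fold or more on the probe sets kept, with CXCL2 uncertain as above. The promoters of the 6 CXCL genes carry a shared short sequence, GGAATTTCC, an NF-kB type site that reads from the gene's own strand. The 110 bases before each gene's start are given from RefSeq (GRCh38.p14) to show that site, with the match in capitals.
CXCL8: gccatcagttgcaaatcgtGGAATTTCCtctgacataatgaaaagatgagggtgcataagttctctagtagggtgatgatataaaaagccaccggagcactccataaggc
CXCL6: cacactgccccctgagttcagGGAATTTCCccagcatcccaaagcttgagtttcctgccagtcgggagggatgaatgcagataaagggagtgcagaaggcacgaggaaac
CXCL5: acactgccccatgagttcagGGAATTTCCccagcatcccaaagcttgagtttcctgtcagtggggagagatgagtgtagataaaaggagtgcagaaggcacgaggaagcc
CXCL1: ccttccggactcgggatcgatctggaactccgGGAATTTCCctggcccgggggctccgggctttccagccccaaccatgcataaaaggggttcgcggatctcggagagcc
CXCL3: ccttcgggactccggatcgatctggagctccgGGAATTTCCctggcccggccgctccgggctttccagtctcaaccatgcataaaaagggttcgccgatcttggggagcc
CXCL2: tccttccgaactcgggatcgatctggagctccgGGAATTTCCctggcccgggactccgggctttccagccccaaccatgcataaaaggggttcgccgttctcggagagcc

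The stretches are chr4:73740459-73740568 on the plus strand for CXCL8, chr4:73836568-73836677 on the plus strand for CXCL6 and chr4:73869283-73869392 on the plus strand for CXCL1. They are chr4:73998678-73998787 for CXCL5, chr4:74038690-74038799 for CXCL3 and chr4:74099196-74099305 for CXCL2, all on the minus strand. The match begins between 77 and 91 bases before the start of the gene in all 6. CXCL1, CXCL2 and CXCL3 are between 88.4% and 93.7% identical over this stretch, and CXCL5 and CXCL6 are 91.0% identical. Between those groups identity is 51.6% to 53.5%, and CXCL8 is between 44.0% and 55.0% identical to the others. The near copies within each group are therefore not separate instances of the match. In the 250 bases before the start, searched on both strands, the match was in 6 of 11 lower genes of the chemokine and cytokine list with a promoter in the table, in 1 of 8 other members, and in 137 of all 27305 genes (0.502%). CXCL2, whose own change is uncertain, is among the 6 lower genes with the match. The motif was chosen after the genes were seen, and a match is a description, not a bound site.

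Some further genes of inflammation and innate defence were lower in PANC1 too. IL1A, interleukin 1 alpha, an alarm cytokine, read 92.6 in PANC1 and 8461 in SU86.86, a difference of -5.70. LCN2, an iron-carrier binding protein of innate defence, had the widest negative difference of all genes, -7.09, at 77.9 in PANC1 and 20247 in SU86.86. LCN2 in the other 3 lines ran from 1624 to 4918, so PANC1 was far below and SU86.86 far above them. S100A9, a neutrophil-type calcium-binding protein, read 42.4 in PANC1 and 3055 in SU86.86. NFKBIZ, an induced partner of NF-kB, read 106 in PANC1 and 3972 in SU86.86, and TNFAIP3, an induced brake on NF-kB, read 235 in PANC1 and 3797 in SU86.86.

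Receptors of the TNF family lie upstream of NF-kB. TNFRSF1A, the main TNF receptor, read 494 in PANC1 and 1562 in SU86.86. LTBR, the lymphotoxin receptor, had -3.79 on the probe set kept and 0.15 on the one chosen when PANC1 and SU86.86 were processed alone, so its value is not settled.

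**Figure D3:**
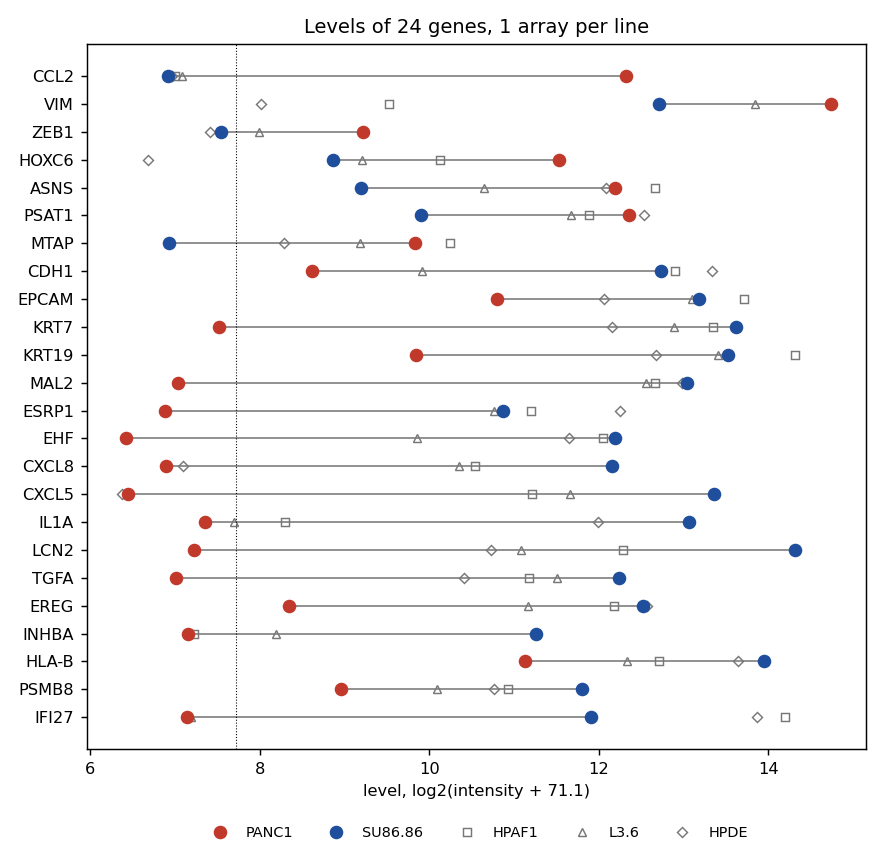
Levels of 24 genes named in the text as log2(intensity + 71.1), with 1 array per line. Filled red points are PANC1, filled blue points SU86.86, and open symbols the other 3 lines. The dotted line is the level filter. CCL2 is above the filter in PANC1 alone, while MAL2, ESRP1 and TGFA are below it in PANC1 and above it in the other 4 lines.

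Of 11 measured receptors and ligands of the EGF family, 5 were lower in PANC1 by 2-fold or more and none was higher. They were the ligands TGFA, EREG, HBEGF and BTC and the receptor ERBB3, which read 107 in PANC1 and 333 in SU86.86. TGFA, transforming growth factor alpha, read 58.3 in PANC1 and 4757 in SU86.86, a difference of -5.22, with -3.59 and -3.06 on its other probe sets. HBEGF, the heparin-binding ligand, read 323 in PANC1 and 3638 in SU86.86. EREG, epiregulin, read 252 in PANC1 and 5786 in SU86.86, a difference of -4.18, but its other probe set gave -0.32. EGFR itself read 4226 in PANC1 and 4357 in SU86.86. NRG1, a ligand of the related receptors ERBB3 and ERBB4, was alike at 547 in PANC1 and 569 in SU86.86. PANC1 was the lowest of the 5 lines for 7 of the 11 genes and SU86.86 the highest for 6.

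Other receptor kinases and their ligands were mostly alike, with 1 of 43 at least 2-fold higher and 6 lower. EFNB2, ephrin B2, read 169 in PANC1 and 3150 in SU86.86. MET, the receptor of hepatocyte growth factor, read 1983 in PANC1 and 4900 in SU86.86. IGF1R, the receptor of insulin-like growth factors, was the one higher gene, at 1181 in PANC1 and 405 in SU86.86. Among binding proteins of those factors, IGFBP3 read 395 in PANC1 and 3309 in SU86.86, while IGFBP4 was higher at 3300 in PANC1 and 1594 in SU86.86.

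The TGF-beta, activin and BMP genes split in both directions, with 6 of 37 at least 2-fold higher in PANC1 and 8 lower. Genes of activin were in both groups. INHBA, the activin A subunit, read 71.2 in PANC1 and 2368 in SU86.86, a difference of -4.10. FST, follistatin, which binds activin, read 116 in PANC1 and 5707 in SU86.86, a difference of -4.95. GREM1, a BMP antagonist, read 223 in PANC1 and 2247 in SU86.86. INHBB, the activin B subunit, went the other way, at 2931 in PANC1 and 997 in SU86.86, a difference of 1.49. INHBA and GREM1 were under 250 in the other 3 lines, so SU86.86 stood apart for both. BMP6, a BMP ligand, was also higher, at 926 in PANC1 and 67.7 in SU86.86, and was near background in the other 3 lines as well. SMAD4, the shared mediator of the pathway, read 862 in PANC1 and 326 in SU86.86, a difference of 1.23 with 0.32 on its other probe set.

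WNT genes were alike, with 1 of 33 higher and 2 lower, beside 5.26% of all genes higher and 7.12% lower. The higher gene was FZD7, a WNT receptor, at 1263 in PANC1 and 381 in SU86.86. Of 26 Notch and hedgehog genes 2 were higher in PANC1 and none lower, again near those shares. DLL3, a Notch ligand that acts inside the cell, read 3042 in PANC1 and 172 in SU86.86, a difference of 3.68, but its 3 other probe sets gave between 0.19 and 0.65.

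RNA levels of MHC class I and antigen processing genes were lower in PANC1 for every gene measured. All 15 had negative differences, 11 of them at least 2-fold, and the median of -1.99 was the lowest of the 50 lists. HLA-B, a class I heavy chain, read 2159 in PANC1 and 15673 in SU86.86, a difference of -2.82, and its other probe sets gave -2.78 and -2.51. PSMB8, a subunit of the immunoproteasome that cuts peptides for class I, read 427 in PANC1 and 3502 in SU86.86. TAP2, a subunit of the transporter that brings those peptides into the endoplasmic reticulum, read 558 in PANC1 and 2249 in SU86.86. The smallest differences were in TAPBP, which loads peptides and gave -0.41, and in PSMB10, a further immunoproteasome subunit, at -0.34. HLA genes share sequence, so their probe sets can read one another, and leaving out those marked as cross-matching left 5 lower genes. PANC1 was the lowest of the 5 lines for 10 of the 15 genes and SU86.86 the highest for 10.

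PSMB8, PSMB9, TAP1 and TAP2 are neighbours in the MHC on chromosome 6 and formed an unbroken run of lower genes with the antisense RNA PSMB8-AS1. Class II genes were low in both lines and lower in PANC1, with 5 of 9 at least 2-fold lower. HLA-DRA, the shared class II alpha chain, read 193 in PANC1 and 664 in SU86.86. CIITA, the activator of class II genes, was near the filter in both lines at 149 in PANC1 and 144 in SU86.86. The class II count was 3 when a gene's probe sets were averaged and 1 without cross-matching ones.

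Interferon-stimulated genes were lower in PANC1 for 16 of 33, with none higher and a median of -0.66. IFI27 read 70.2 in PANC1 and 3766 in SU86.86, a difference of -4.76. ISG15, a ubiquitin-like protein, read 704 in PANC1 and 3779 in SU86.86. IFITM3, which blocks viral entry, read 3637 in PANC1 and 10646 in SU86.86. MX2, an antiviral GTPase, was alike at 1138 in PANC1 and 1123 in SU86.86. SU86.86 was the highest of the 5 lines for none of the 33 genes, and IFI27 and ISG15 were higher still in HPAF1 and HPDE. PANC1 was the lowest for 23.

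Surface antigens of pancreatic carcinoma and its secretory products were also compared. Of 27 surface antigens, 12 were lower in PANC1 by 2-fold or more and 1 was higher. CEACAM6, an adhesion protein of the carcinoembryonic family, read 94.3 in PANC1 and 4584 in SU86.86, a difference of -4.81. CD24, a mucin-like sialoprotein, read 784 in PANC1 and 5235 in SU86.86. PROM1, the stem cell antigen CD133, read 86.5 in PANC1 and 888 in SU86.86, and was at background in the other 3 lines. MSLN, mesothelin, and MUC1 were low in both lines, MSLN at 179 in PANC1 and 164 in SU86.86 and MUC1 at 396 in PANC1 and 349 in SU86.86. Of 25 mucins, trefoil factors and related secretory genes 4 were lower and none higher, with a median of -0.03 and 13 of the 25 below the filter in PANC1. Among the 4 was TFF2 at 104 in PANC1 and 1533 in SU86.86.

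Annexins and S100 proteins had 9 of 24 members lower and 1 higher. ANXA3, a calcium-dependent membrane-binding protein, read 42.9 in PANC1 and 7977 in SU86.86, a difference of -6.14. S100A16 read 414 in PANC1 and 9426 in SU86.86. S100A10 and S100A6 were high and alike, S100A10 at 15559 in PANC1 and 16131 in SU86.86, and S100A6 at 16535 in PANC1 and 14935 in SU86.86.

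Integrins, and matrix proteases with their inhibitors, were lower in PANC1 where they differed by 2-fold or more, and laminin chains were split. Of 16 integrin subunits 5 were lower in PANC1 by 2-fold or more and none was higher. ITGB4, the hemidesmosome subunit, read 122 in PANC1 and 1891 in SU86.86, and its laminin ligand chain LAMB3 read 114 in PANC1 and 4994 in SU86.86, a difference of -4.77. LAMC3, the one laminin chain that was 2-fold higher, read 284 in PANC1 and 105 in SU86.86. ITGB8, a subunit that binds latent TGF-beta, read 28.9 in PANC1 and 1522 in SU86.86. Of 27 proteases of the matrix and their inhibitors 6 were lower and none higher. Among the 6 were the inhibitors SERPINE2 and TIMP2, with differences of -3.55 and -2.05. PLAT, tissue plasminogen activator, read 44.8 in PANC1 and 3378 in SU86.86, and PLAUR, the urokinase receptor, read 372 in PANC1 and 3231 in SU86.86. F3, tissue factor, which starts coagulation, read 168 in PANC1 and 6611 in SU86.86.

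Amino acid genes were mostly higher in PANC1 where they differed. Of 24 measured, 8 were at least 2-fold higher and 3 lower, with a median of 0.53. ASNS, asparagine synthetase, read 4599 in PANC1 and 515 in SU86.86, a difference of 2.99. The serine synthesis enzymes PHGDH and PSAT1 were both higher, PHGDH at 3563 in PANC1 and 850 in SU86.86, and PSAT1 at 5174 in PANC1 and 886 in SU86.86. STC2, a secreted glycoprotein induced by amino acid stress, read 1679 in PANC1 and 76.0 in SU86.86, a difference of 3.57. For ASNS and PSAT1 the SU86.86 array was the lowest of the 5, so the difference lay on that side, and PANC1 was within the range of the other lines.

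The lower members included SLC7A11, the cystine importer, at 515 in PANC1 and 3158 in SU86.86. ASS1, argininosuccinate synthase, read 188 in PANC1 and 1654 in SU86.86. SLC7A1 was also lower, with a difference of -1.23. SHMT2, the mitochondrial serine enzyme, was alike at 3172 in PANC1 and 2994 in SU86.86. With cross-matching probe sets left out, the higher members numbered 5. A motif bound by ATF4, TGATGNAA, was searched on both strands because that factor can drive some genes of this list under amino acid stress. It was in the 250 bases before the start of 2 of 7 higher genes in the promoter table, ASNS and CHAC1, in 1 of 14 other members and in 3.89% of all 27305 genes. Regulation by ATF4 was not tested. The ASNS match is shown in capitals in the 110 bases before its start (RefSeq, GRCh38.p14, chr7:97872409-97872518, minus strand).
ASNS: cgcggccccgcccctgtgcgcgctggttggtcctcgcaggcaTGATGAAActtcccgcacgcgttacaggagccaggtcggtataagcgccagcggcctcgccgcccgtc

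The letters CACCTG, an E-box that ZEB1 can bind, were searched in the same way in the epithelial junction list. They were in 8 of 12 lower genes with a promoter in the table (66.7%) and in 5 of 7 other members (71.4%), against 20.6% of all genes. Among the genes searched, the share was no higher in the lower genes than in the members that did not differ in that direction. Only 12 of the 21 lower genes could be searched, and CDH1, EPCAM, ST14 and PRSS8 were not among them. Binding by ZEB1 was not tested.

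Oxidant defence and drug-handling genes went both ways. Of 38 NRF2 targets and glutathione genes 10 were lower in PANC1 by 2-fold or more and 3 higher. MGST1, a membrane glutathione transferase, read 499 in PANC1 and 9989 in SU86.86, a difference of -4.14. HMOX1, haem oxygenase, read 1004 in PANC1 and 146 in SU86.86. NFE2L2, which encodes NRF2, was alike at 2074 in PANC1 and 2055 in SU86.86. AKR1C3, AKR1C2 and AKR1C1, neighbouring aldo-keto reductases that share sequence, had differences of -2.20, -1.34 and -1.04, and AKR1C1 gave 0.19 with cross-matching probe sets left out.

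Genes of gemcitabine transport and metabolism were compared together with genes of drug efflux, and 3 of 27 differed in each direction. Gemcitabine is a nucleoside drug used in pancreatic carcinoma. CDA, cytidine deaminase, which inactivates the drug, read 59.6 in PANC1 and 1307 in SU86.86, a difference of -3.40. SLC29A1, the nucleoside carrier that imports it, read 2647 in PANC1 and 888 in SU86.86. RRM2, the ribonucleotide reductase subunit, was alike at 9400 in PANC1 and 9485 in SU86.86. Among repair genes, MGMT, which removes alkyl groups from guanine, was among the 20 highest, at 955 in PANC1 and 39.9 in SU86.86. L3.6 was also at background for MGMT, at 56.9. ALDH1A3, a retinaldehyde dehydrogenase, read 534 in PANC1 and 6571 in SU86.86.

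Sugar and lipid genes went both ways. Of 33 glycolysis and hypoxia genes 5 were at least 2-fold higher in PANC1 and 4 lower, and of 29 sterol and fatty acid genes 3 were higher and 3 lower. ANGPTL4, a hypoxia-induced inhibitor of lipoprotein lipase, read 892 in PANC1 and 199 in SU86.86, and NDRG1, a hypoxia-induced stress protein, read 654 in PANC1 and 171 in SU86.86. BNIP3, a mitophagy receptor induced by hypoxia, read 1979 in PANC1 and 660 in SU86.86. Other genes of the same list were lower in PANC1 or alike. SLC2A1, the main glucose carrier, read 973 in PANC1 and 5074 in SU86.86, a difference of -2.30, while ALDOA, aldolase, was alike at 8862 in PANC1 and 8848 in SU86.86. SCD, the stearoyl-CoA desaturase, read 4422 in PANC1 and 1150 in SU86.86. ACSL5, an acyl-CoA synthetase, read 74.9 in PANC1 and 2135 in SU86.86. In the zinc carriers, SLC39A8 read 129 in PANC1 and 2285 in SU86.86.

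Most cell cycle genes differed by less than 2-fold between the lines. Of 33 mitotic genes 2 were at least 2-fold higher in PANC1 and none lower, although 29 of the 33 had a positive difference and the median was 0.37. Of 34 replication genes 2 were higher, among them TYMS, thymidylate synthase, at 12188 in PANC1 and 4963 in SU86.86. Both counts of higher genes were near the 5.26% of all genes. Of 23 G1 cyclins, kinases and inhibitors none was higher and 2 were lower, beside 7.12% of all genes lower. The 2 were CCND3, a cyclin D, and CDKN1A, with differences of -1.19 and -1.18. CCNE1, cyclin E, read 1576 in PANC1 and 1628 in SU86.86, and MYC read 2820 in PANC1 and 2636 in SU86.86. The ribosomal protein genes, a control list, had no member past 2-fold and a median of 0.02.

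The p53 targets that differed were lower in PANC1, and death regulators went both ways. Of 22 p53 targets 7 were at least 2-fold lower and none higher, with CDKN1A, the inhibitor p21, at 1299 in PANC1 and 3030 in SU86.86. Of 33 death regulators 8 were lower and 2 higher. TNFRSF10B and TNFRSF10A, 2 of the TRAIL receptors, were both lower. TNFRSF10B read 561 in PANC1 and 2555 in SU86.86, and TNFRSF10A read 289 in PANC1 and 1342 in SU86.86. A further TRAIL receptor, TNFRSF10D, had the lowest difference of the list, -2.73, while TNFRSF10C gave -0.43. XIAP, a caspase inhibitor on the X chromosome, was higher, at 1784 in PANC1 and 804 in SU86.86.

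HOX genes that differed were all of the HOXC cluster and all higher in PANC1, 3 of 20 measured. HOXC10 read 1926 in PANC1 and 207 in SU86.86, a difference of 2.85. HOXC6 read 2887 in PANC1 and 395 in SU86.86, a difference of 2.67. HOXC9 read 434 in PANC1 and 70.9 in SU86.86. PANC1 was the highest of the 5 lines for all 3, and HPDE was the lowest.

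The widest positive differences did not fall into 1 list. ITPR2, a calcium channel of the endoplasmic reticulum, led at 10122 in PANC1 and 136 in SU86.86, a difference of 5.62, but its 2 other probe sets gave 0.51 and 0.67. CRNDE, a long noncoding RNA, read 2573 in PANC1 and 15.7 in SU86.86, a difference of 4.93, with 3.72 on its other probe set. The other 3 lines ran from 990 to 1696 for CRNDE, so SU86.86 alone was without it. SYTL2, a synaptotagmin-like vesicle protein, read 5362 in PANC1 and 241 in SU86.86. CLU, the chaperone clusterin, read 5906 in PANC1 and 322 in SU86.86, a difference of 3.93, and its 2 other probe sets gave 3.51 and 3.64.

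RBM24, an RNA-binding protein of muscle, read 2365 in PANC1 and 82.2 in SU86.86, and was under 80 in the other 3 lines. PPP1R14A, an inhibitor of myosin phosphatase, read 6085 in PANC1 and 447 in SU86.86, and was near background in the other 3 lines. NTS, the gut peptide neurotensin, read 915 in PANC1 and 18.5 in SU86.86, and HPAF1 also had it, at 479. P3H2, a collagen-modifying enzyme, had 3.57 on the probe set kept and -0.01 on its other, so its difference is uncertain.

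For the genes at least 2-fold apart, PANC1 and SU86.86 were placed against the range of the other 3 lines. Of the 783 higher genes, PANC1 alone was outside that range for 379 (48.4%), SU86.86 alone for 150 (19.2%), both for 194 and neither for 60. Of the 1061 lower genes, PANC1 alone was outside for 381 (35.9%), SU86.86 alone for 299 (28.2%), both for 247 and neither for 134. By this count PANC1 alone was outside more often than SU86.86 alone in both directions. The count has no margin, so where PANC1 and another line were both at background a small gap set the side. Of the 139 genes at least 8-fold lower, both lines were outside for 62, PANC1 alone for 49 and SU86.86 alone for 23. Of the 31 at least 8-fold higher, PANC1 alone was outside for 18, both for 9 and SU86.86 alone for 3. CST6, a cystatin that inhibits proteases, is a case of the SU86.86 side, at 74.8 in PANC1 and 9451 in SU86.86, with 78.3 to 335 in the other 3 lines.

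Some differences followed position on the chromosome. Against 5.26% of placed genes higher and 7.13% lower, chromosome 18 had 22.3% of its 220 genes higher and 1.82% lower, and chromosome X had 21.9% of 483 higher and 7.87% lower. Chromosome 13 had the reverse, with 5 of 263 genes higher and 50 lower. SU86.86 was the lowest of the 5 lines for 46.4% of the chromosome 18 genes and 37.9% of those on X, against 23.6% of all genes. DNA copy number was not measured here, and its part in these shifts was not tested.

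Windows of 40 neighbouring genes, a width chosen after the data were seen, placed these shifts. The highest median was on X, from CT83 to RBMX2, at 1.17, with 24 of 40 genes at least 2-fold higher in PANC1 and none lower. The lowest window of X, from TLR8 to SMS, had a median of -0.30, with 12 genes lower and 2 higher. In the highest window lies an unbroken run of 6 genes from LAMP2 to XIAP, which includes CUL4B, a ubiquitin ligase scaffold, at 2848 in PANC1 and 1098 in SU86.86. On chromosome 18 the window from DSG2-AS1 to SMAD2 had a median of 0.75, with 15 genes higher, and SU86.86 was the lowest line for 26 of 40. Near the end of chromosome 18, TXNL4A, a spliceosome protein, read 11498 in PANC1 and 2233 in SU86.86, a difference of 2.33 within a run of 4 higher genes.

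On chromosome 9 the window from VCP to IGFBPL1 had a median of 0.92 and 17 higher genes. VCP, an ATPase that extracts proteins for breakdown, read 5458 in PANC1 and 2546 in SU86.86, and POLR1E, a subunit of RNA polymerase I, read 2551 in PANC1 and 725 in SU86.86. Of 13 measured genes near CDKN2A on the short arm 3 were at least 2-fold higher in PANC1 and 1 was lower. The higher genes, MTAP, KLHL9 and FOCAD, were below the filter in SU86.86 and above it in the other 4 lines. MTAP, an enzyme of methionine salvage, read 837 in PANC1 and 51.0 in SU86.86, a difference of 2.90, and KLHL9, a ubiquitin ligase adaptor, read 602 in PANC1 and 47.2 in SU86.86. CDKN2A, which encodes the cell cycle inhibitor p16, was low in both, at 179 in PANC1 and 189 in SU86.86, against 5597 to 11086 in the other 3 lines. MLLT3, a chromatin reader, was the lower gene, at 126 in PANC1 and 485 in SU86.86. PANC1 and SU86.86 were thus alike at CDKN2A and different at MTAP.

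On chromosome 19 there was a run of 4 higher genes, TIMM50, DLL3, EID2B and EID2. For TIMM50, EID2B and EID2 both lines stood above the other 3, while for DLL3 the SU86.86 array was the lowest of the 5. TIMM50, which imports proteins into mitochondria, read 14881 in PANC1 and 5466 in SU86.86, with 877 to 2253 in the other 3 lines. EID2, a repressor of transcription, read 7509 in PANC1 and 3640 in SU86.86, with 476 to 1253 in the other 3 lines. The lowest window was on chromosome 4, from ADAMTS3 to ANTXR2, with a median of -0.83 and 19 of 40 genes lower, and it holds the CXCL genes described above. On chromosome 13 the window from MBNL2 to CARS2 had a median of -0.64 and 13 lower genes, among them EFNB2. In all there were 21 runs of at least 3 higher genes with 75 genes, 9 of the runs on X, and 30 runs of lower genes with 103 genes, 3 of the runs on X.

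**Figure D4:**
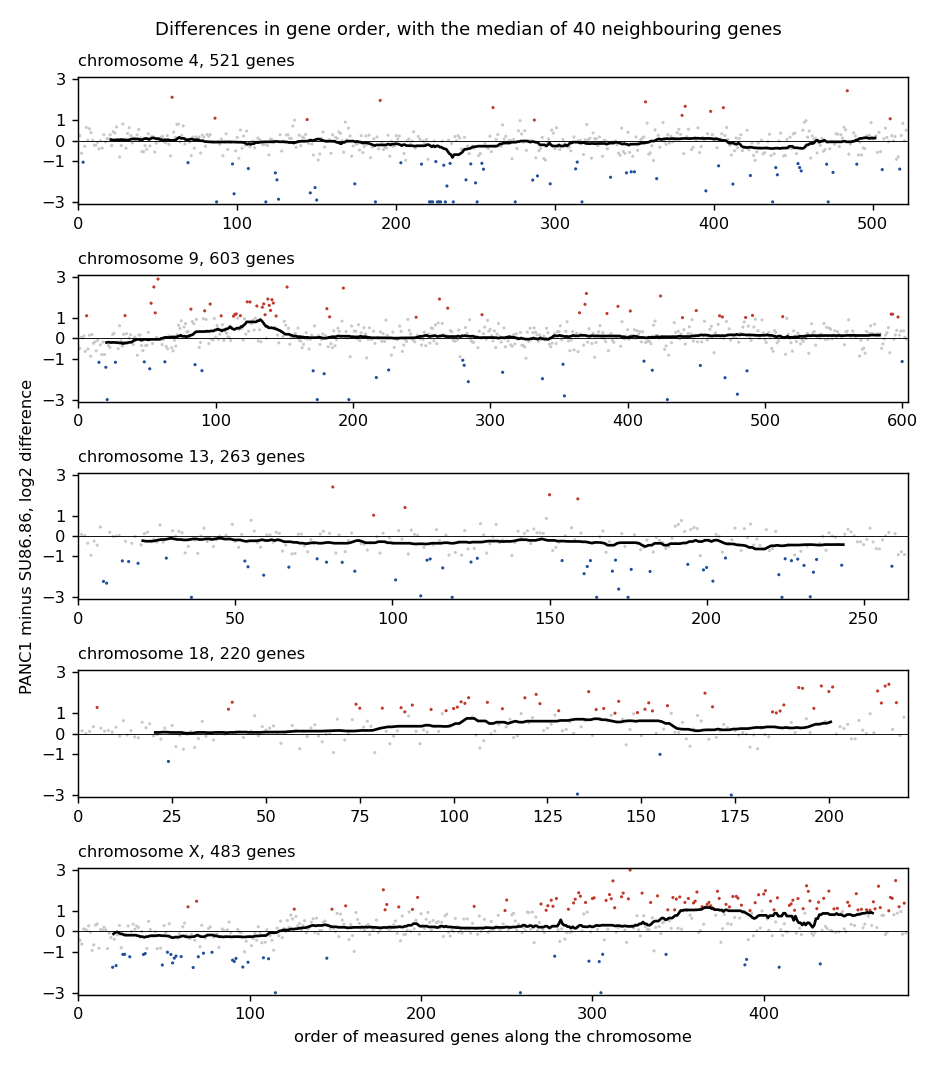
Differences PANC1 minus SU86.86 on the log2 scale for the measured genes of chromosomes 4, 9, 13, 18 and X in their order along each chromosome. Each point is a gene, red at least 2-fold higher in PANC1 and blue at least 2-fold lower, and points beyond 3 are drawn at 3. The black line is the median of 40 neighbouring genes. It climbs above 1 on X, stays above 0 over most of chromosome 18 and below 0 over chromosome 13.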

How the data were processed

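Total RNA of 5 pancreatic lines was labelled with biotin and hybridised to 1 Affymetrix array per line, per the labels' protocols. The deposited table holds a linear intensity for 54675 probe sets; the authors' summarisation and scaling are not given in the sources at hand. No normalization was added. Values were transformed as log2(value + 71.1), the constant being the 25th percentile of positive values. The 62 control probe sets were left out; 41091 probe sets had 1 gene symbol, 1801 several and 11721 none. Symbols were updated through a RefSeq table for GRCh38.p14 for 41039, and 52 kept the older one. Each gene kept its probe set of highest mean, and genes reaching an intensity of 140 in any line were retained. Files were read with Python 3.11.15, pandas 2.3.3 and numpy 2.4.6. The steps were tested on simulated data in which only bright genes changed, by the same amount on all their probe sets. That test does not cover dim genes or probe sets that disagree.

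With 1 array per line, depth of replication limits every value, and nothing was tested. The 50 gene lists (1199 genes, 969 measured and past the filter) and the rules were chosen with earlier results of these data known. Named genes were the 20 widest differences each way, up to 6 members at least 2-fold apart and 2 alike members per list, a fixed set of markers, and genes in runs of 3 or more neighbours. Genes that pass the filter only through 1 bright line had to differ. Alternatives were other constants, normalizations, filters, probe set choices and arrays.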

Additional observations from a re-analysis of the deposited data

How the results depend on the processing

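The counts at 2-fold moved by less than 1.5 times under all 10 alternatives. At 8-fold, against 31 higher and 139 lower genes, a constant of 16 gave 50 and 221, no constant (values under 16 raised to 16) gave 62 and 260, and the mean of all probe sets gave 18 and 82. With that mean, the higher genes for which SU86.86 alone lay outside the other lines numbered 88 rather than 150, and the lower mesenchymal genes and MHC class II genes numbered 4 and 3. Without probe sets of the suffix _x_at or _s_at, the lower members numbered 2 for mesenchymal genes, 2 for simple keratins, 5 for MHC class I and 1 for MHC class II, and the higher amino acid genes numbered 5; fewer probe sets were then measured. The same choice reversed AKR1C1 (0.19), CLTA (-0.060), COL6A1 (0.43), CXCL2 (0.056), IL20RA (0.27), P3H2 (-0.014), ROR1 (0.13) and UCHL1 (0.065). Processing PANC1 and SU86.86 alone reversed IL20RA (0.28) and LTBR (0.15). Of the 374 named genes at least 2-fold apart, 290 of the 298 measured kept their direction in the first case and 371 of 373 in the second, and all that were measured kept it under the other 8 alternatives. All 14 lists with a median of 0.5 or more in size kept its sign, but the smallest of these medians was 0.17 in size with no level filter and 0.04 without those probe sets. The stricter level filter left no acinar marker and so gave no median for that list. Further probe sets above the filter all went the same way for 346 of 380 higher and 506 of 577 lower genes, but all by 2-fold or more for only 143 and 281. Why a choice moved a value was not tested beyond this. No paired analysis was possible because each line has 1 array, and for the same reason no replicate could be left out.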

Other observations

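Several genes of neurons and glia differed between these carcinoma lines. BDNF, a neurotrophin, read 63.8 in PANC1 and 1607 in SU86.86, a difference of -3.64, and HPAF1 was near SU86.86 at 1307. DPYSL3, a protein of growing axons, read 39.7 in PANC1 and 548 in SU86.86. Its relative DPYSL2 had the opposite sign, at 2574 in PANC1 and 281 in SU86.86. SYT1, the calcium sensor of synaptic vesicles, read 457 in PANC1 and 178 in SU86.86. Of 18 measured genes of this kind 2 were lower in PANC1 by 2-fold or more and 1 was higher, so the list did not stand out from the 7.12% of all genes lower and 5.26% higher.

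Of 10 measured germline antigens 2 were at least 2-fold higher in PANC1 and 1 was lower, beside 5.26% and 7.12% of all genes. DDX43, a helicase of the testis, read 651 in PANC1 and 42.8 in SU86.86, and was under 50 in the other 3 lines. PRAME was the other higher gene, with a difference of 1.43. MAGEB2, the lower gene, read 48.4 in PANC1 and 245 in SU86.86, and was again under 50 elsewhere. MAGEA6 was alike in both lines, with a difference of -0.04. EOMES, a T-box factor of early embryos, read 1087 in PANC1 and 62.4 in SU86.86, with 340 in L3.6. COL8A1, a short-chain collagen, read 37.6 in PANC1 and 2159 in SU86.86, and was under 100 in the other 3 lines. HIF1A, the oxygen-regulated factor, read 3441 in PANC1 and 8840 in SU86.86, and PANC1 was the lowest of the 5 lines for it.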
